A study of Homo sapiens with 24 samples.

Results

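The genes described here are HIF1A, which encodes the oxygen-regulated subunit of the hypoxia-inducible factor HIF-1, and 9 genes known as its targets outside the glycolytic enzymes, namely EGLN1, PDK1, VEGFA, ADM, BNIP3, P4HA1, KDM3A, NDRG1 and ANKRD37. They were taken by symbol from the deposited table of read counts, in which all 10 were found among 23354 genes. The sequenced RNA came from MV4-11 and KG-1a, both established human cell lines of acute myeloid leukemia, exposed to the adenosine analogs 8CA (8-chloro-adenosine) or 8AA (8-amino-adenosine). In place of a hydrogen on the adenine ring 8CA bears a chlorine and 8AA an amino group. Each line was left without drug, treated with 1 μM 8CA or treated with 1 μM 8AA, and RNA was taken at 8 h and at 24 h, which gave 12 groups of 2 libraries labelled A and B. All cells shared 1 medium with serum and antibiotics in a CO2 incubator, every sample is labelled wild type, and low oxygen is named for none. With 1 line of each kind, a difference between lines is one between MV4-11 and KG-1a only.

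In cells with enough oxygen, prolyl hydroxylases such as EGLN1 modify the HIF1A protein, VHL then marks it for destruction, and little HIF-1 is present. When oxygen is short, HIF1A protein accumulates, pairs with ARNT and binds a short DNA core in its target genes, so control of HIF1A lies mainly at the protein and not at the RNA. The targets serve oxygen sensing and feedback (EGLN1), diversion of pyruvate from mitochondria (PDK1), signals to vessels (VEGFA, ADM), removal of mitochondria (BNIP3), collagen hydroxylation (P4HA1), histone demethylation (KDM3A) and differentiation and stress responses (NDRG1), while ANKRD37 is a small ankyrin repeat protein used as a hypoxia marker. These counts measure RNA alone, and in bulk RNA fewer cells with a transcript and less of it per cell cannot be told apart.

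Library totals ran from 18633963 to 24520078 counts. Of 9 markers listed for leukemia lines, CD34 was at 325 to 629 CPM (counts scaled to a common library size) in KG-1a against at most 0.175 in MV4-11. FLT3 was at 426 to 621 CPM in MV4-11 against at most 1.32 in KG-1a. CD33, SPI1 and MPO were also low in KG-1a, at most at 1.02, 7.81 and 2.16 CPM, against at least 105, 219 and 8.01 in MV4-11. CD38 was at most at 1.4 CPM in MV4-11 and 11.4 in KG-1a, and KIT at most at 7.21 in either line. PTPRC and CD44 were at 80.9 CPM or more in both. Whether these levels match those known for each line was not tested. Of 10 markers of other lineages, MS4A1, EPCAM and KRT19 were at 0 counts in every library, and CD3E was at 0 in MV4-11 and at 22.2 to 78.3 CPM in KG-1a. The 8AA libraries of KG-1a at 24 h stood apart, since the chi-square per degree of freedom between them was 12.3, against 1.43 to 5.20 in the other 11 pairs, and their summed level of the other-lineage markers was 71.8 and 85.1 CPM against 42.2 and 42.3 in untreated KG-1a at 24 h, most of it CD3E. For most results of the 10 genes that rest on this pair, values without each library are given below. Medians, list counts and values of other genes that rest on it are given with both libraries only. The part of these differences in the results was not tested. The labels do not say that A and B came from separate cultures, so p-values measure only the spread between these libraries, which may be technical. A gene is said below to have risen or fallen only at an adjusted p under 0.05 in edgeR's quasi-likelihood test, with adjustment over all genes tested in a line.

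The members differed in how the HIF-1 core stood in their promoters, and the stretches around it are shown for 3 genes that were mostly lower after 24 h (ANKRD37, BNIP3 and P4HA1), for PDK1 and KDM3A, which took other courses, and for EGLN1, which passed no test against untreated cells. The core was searched as ACGTG or GCGTG on either strand in the 250 bases before each start site in the RefSeq promoter table (GRCh38.p14), and capitals mark it, reading CACGT or CACGC where it lies on the opposite strand.
ANKRD37 (chr4:185396661-185396720, plus strand): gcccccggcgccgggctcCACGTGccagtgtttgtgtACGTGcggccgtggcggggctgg
BNIP3 (chr10:131982005-131982084, minus strand): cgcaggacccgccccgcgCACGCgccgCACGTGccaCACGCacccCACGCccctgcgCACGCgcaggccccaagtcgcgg
P4HA1 (chr10:73096930-73096970, minus strand): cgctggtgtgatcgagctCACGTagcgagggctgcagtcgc
PDK1 (chr2:172556055-172556089, plus strand): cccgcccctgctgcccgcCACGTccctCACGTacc
EGLN1 (chr1:231422288-231422318, minus strand): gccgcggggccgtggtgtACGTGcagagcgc
KDM3A (chr2:86441327-86441367, plus strand): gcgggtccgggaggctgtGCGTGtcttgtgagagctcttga
For VEGFA and NDRG1 no entry of that table was searched, so their promoters are not described. The other 8 members had 11 entries, of which 9 held a core, while 1 of the entries of HIF1A and 1 of PDK1 held 0. Counted in the same way, by window, ACGTG or GCGTG was present in 43.2% of all 35116 promoter windows there, with ACGTG in 18.5% and GCGTG in 32.2%. BNIP3 held 6 matches and ANKRD37 held 3, and in both the palindrome CACGTG, which is also the E-box core and counts once on each strand, was present, as in 6.34% of all windows. P4HA1, EGLN1 and KDM3A held 1 match each, and PDK1 held 2 just before its start. A match describes these letters and not a bound site, and binding was not measured.

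Without drug, the members differed widely in level. For its length, HIF1A was the most abundant of the 10 in KG-1a at 24 h, with 34.8 ± 0.75 RPKM (CPM per kilobase of exon, mean ± SD, n = 2). It was followed there by NDRG1 at 19.3 ± 0.12, P4HA1 at 18.4 ± 0.36 and KDM3A at 17.4 ± 1.2 RPKM, of which P4HA1 and KDM3A did not differ beyond their SD, and then by PDK1 at 11.1 ± 0.22 and BNIP3 at 10.9 ± 0.56 RPKM, which did not either. EGLN1 was at 7.05 ± 0.20 RPKM, VEGFA at 2.70 ± 0.22 RPKM, ADM at 1.09 ± 0.26 RPKM and ANKRD37 at 0.837 ± 0.090 RPKM. In MV4-11 at 24 h the order was led by P4HA1 at 33.6 ± 3.2 RPKM and KDM3A at 22.6 ± 0.20 RPKM, HIF1A at 13.2 ± 0.15 and NDRG1 at 13 ± 2.6 RPKM could not be ranked, and VEGFA stood at 10.2 ± 0.90 RPKM.

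Untreated MV4-11 and KG-1a differed in 8 of the 10 members at 8 h and in the same number at 24 h, with 82.2% and 82% of 14055 genes called between the lines at those times, so differing was the rule for any gene. HIF1A was lower in MV4-11, with 44.2 and 45.8 CPM at 8 h against 139 and 148 CPM in KG-1a (log2 difference −1.67 ± 0.05 SE). VEGFA was the reverse, with 39.9 and 40.4 CPM in MV4-11 against 10.7 and 11.9 CPM in KG-1a (1.82 ± 0.09). BNIP3, NDRG1, PDK1 and ADM were lower in MV4-11 at both times and P4HA1 and KDM3A higher, while EGLN1 and ANKRD37 did not pass the test. The plot of all libraries shows these levels side by side.

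**Figure D1:**
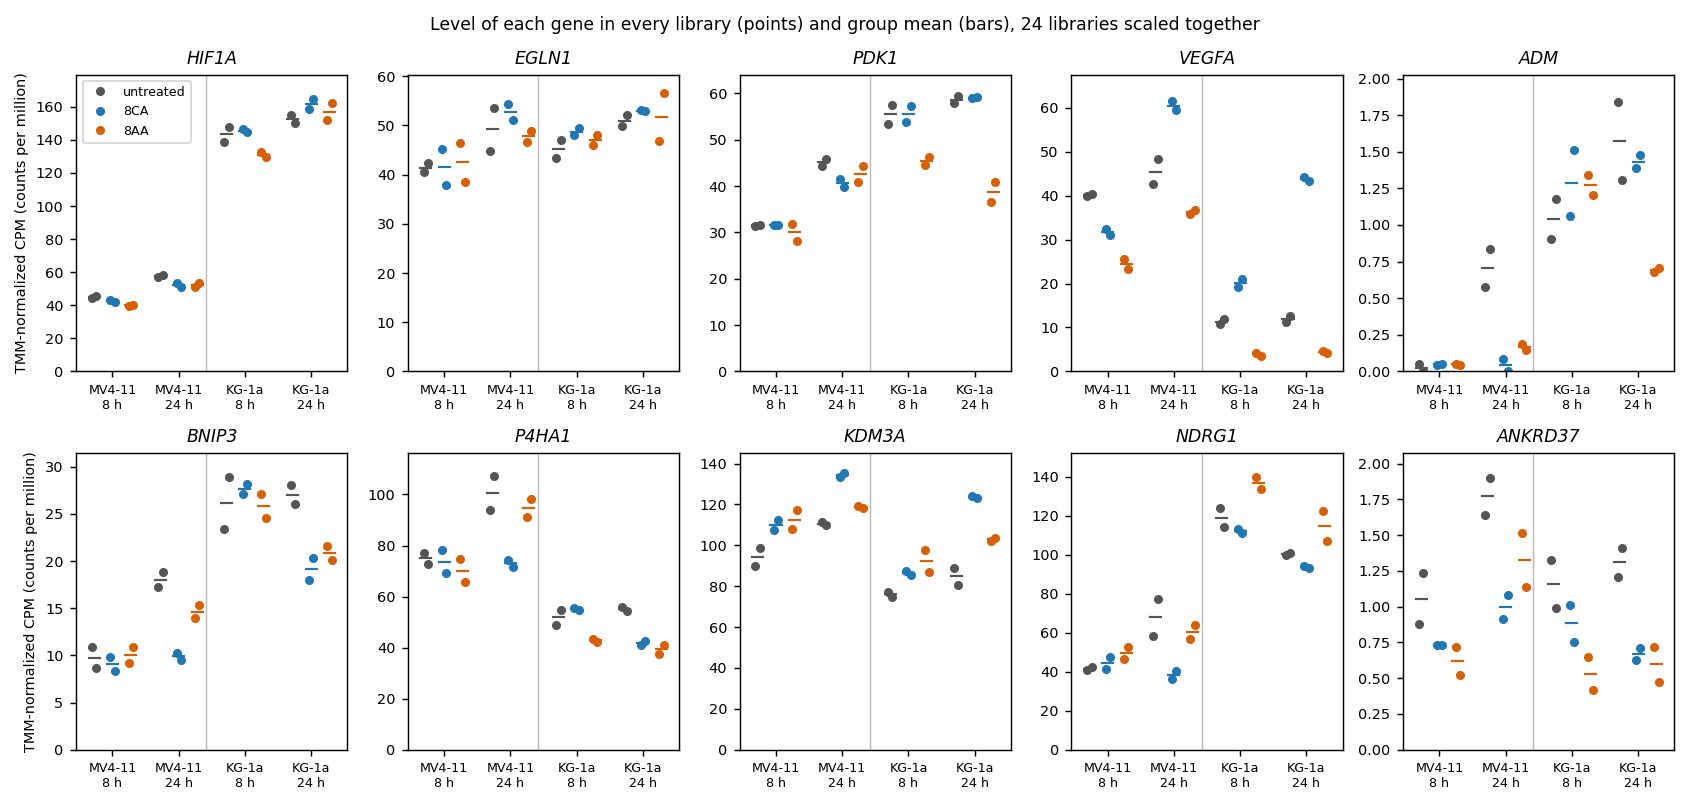
Level of each of the 10 genes in CPM after TMM scaling of all 24 libraries (vertical axis, from 0) in MV4-11 and KG-1a at 8 h and 24 h. Points are libraries, bars are the mean of 2, grey is untreated, blue 8CA and orange 8AA; VEGFA in KG-1a runs from 3.48 CPM with 8AA at 8 h to 44.2 CPM with 8CA at 24 h.

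HIF1A RNA itself moved little under either drug. The gene lies at 62162119 to 62214977 on the plus strand of chromosome 14 in the deposited table, and HIF1A-AS2, on the opposite strand within it, held 0 to 12 counts. In MV4-11 at 24 h the levels were 57.2 and 58.1 CPM in untreated libraries, 53.5 and 50.9 under 8CA, and 50.8 and 53.6 under 8AA. Both drug groups lay below the untreated pair without overlap. HIF1A fell by 0.16 ± 0.05 on the log2 scale under each drug (adjusted p = 0.0226 for 8CA and 0.0334 for 8AA). Each call was lost in 7 of 13 alternatives, among them DESeq2, library-size scaling, leaving out either untreated library and leaving out 8CA library B or 8AA library A (adjusted p up to 0.151 and 0.164). At 8 h it fell in MV4-11 with 8AA (−0.20 ± 0.06, adjusted p = 0.0147), a call lost without either 8AA library or untreated library B (adjusted p = 0.0607, 0.0513 and 0.0787). In KG-1a HIF1A passed the test in 0 of 4 drug comparisons, with log2 fold changes between −0.12 and 0.09. At 24 h with 8AA its levels there were 152 and 162 CPM against 155 and 150 untreated, which overlap.

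EGLN1, the main oxygen-sensing hydroxylase and itself a HIF-1 target, was the member that moved least, with log2 fold changes between −0.06 and 0.11. Its gene lies on chromosome 1 from 231499497 to 231560790, minus strand. It passed the test in 0 of 8 comparisons with untreated libraries. In MV4-11 at 24 h the levels were 44.9 and 53.5 CPM in untreated libraries, 54.3 and 51.1 under 8CA, and 46.7 and 48.9 under 8AA, and the untreated libraries spanned most of this range. The 95% interval of the log2 fold change was −0.13 to 0.29 with 8CA and −0.28 to 0.15 with 8AA, and smaller differences cannot be told from 0 here. With 8AA in KG-1a at 24 h EGLN1 was at 46.9 and 56.5 CPM against 49.9 and 52.0 untreated, with the untreated pair inside the 8AA pair, and its log2 fold change was 0.02 ± 0.08, or 0.15 and −0.12 without 8AA library A or B (adjusted p = 0.0589 and 0.130).

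VEGFA, the chief growth factor for blood vessels, passed the test in all 8 comparisons with untreated libraries, the only one of the 10 to do so, and in KG-1a its direction differed between the drugs. Its gene spans 43737946 to 43754223 on chromosome 6, plus strand. In KG-1a at 24 h it was at 11.3 and 12.7 CPM in untreated libraries, 44.2 and 43.2 CPM under 8CA, and 4.72 and 4.21 CPM under 8AA. The 3 groups did not overlap. VEGFA rose 3.65-fold with 8CA (log2 1.87 ± 0.09, adjusted p = 3.54e-10) and fell to 0.374 of the untreated level with 8AA (log2 −1.42 ± 0.12, adjusted p = 1.49e-07). Without library A or B of the 8AA pair the log2 fold change was −1.51 and −1.34. The same split stood at 8 h, with 10.7 and 11.9 CPM untreated, 19.3 and 21.1 with 8CA (log2 0.83 ± 0.10, adjusted p = 2.51e-04) and 4.27 and 3.48 with 8AA (−1.54 ± 0.13, adjusted p = 3.83e-07).

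In MV4-11 the VEGFA changes were smaller, and that of 8CA turned with time. At 8 h the levels were 39.9 and 40.4 CPM in untreated libraries, 32.4 and 31.0 under 8CA, and 25.5 and 23.3 under 8AA. VEGFA fell under both, by 0.35 ± 0.07 and 0.75 ± 0.07 on the log2 scale for 8CA and 8AA (adjusted p = 0.00709 and 4.00e-06). At 24 h the levels were 42.7 and 48.3 CPM in untreated libraries, 61.5 and 59.5 under 8CA, and 35.9 and 36.8 under 8AA. VEGFA then stood above untreated with 8CA (0.39 ± 0.07, adjusted p = 2.35e-04) and below it with 8AA (−0.34 ± 0.07, adjusted p = 0.00186). Of these 4 calls, that of 8CA at 8 h was lost without 8CA library B (−0.32, adjusted p = 0.0523).

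ADM, which encodes the vasodilating peptide adrenomedullin, was at the limit of detection in MV4-11. Its short gene lies on chromosome 11 from 10326642 to 10328923, plus strand. The counts there were 12 and 18 in the untreated libraries at 24 h, 2 and 0 with 8CA, 4 and 3 with 8AA, and 0 or 1 in all 6 libraries at 8 h. It entered the MV4-11 test through the untreated 24 h group alone, so a difference from that group was built into the filter. Per library size the 8CA count was 0.0601 of the untreated one (exact 95% interval 0.00696 to 0.237) and the 8AA count 0.232 (0.0860 to 0.539), intervals that cover counting error only. edgeR called both (adjusted p = 3.50e-04 and 0.00933), the second lost without either 8AA library or without untreated library B (adjusted p = 0.0539, 0.0617 and 0.0936), while fitted folds of so few counts depend on the prior count. Counts in KG-1a at 24 h were 38 and 25 in untreated libraries, 31 and 31 under 8CA, and 17 and 15 under 8AA. ADM fell with 8AA (log2 −1.18 ± 0.30, adjusted p = 0.00341), also without 8AA library A or B (−1.15 and −1.21), but not past the threshold without untreated library A (−0.92, adjusted p = 0.0605).

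PDK1, the kinase that switches off pyruvate dehydrogenase, fell with 8AA in KG-1a and passed the test in 0 of the 6 other comparisons. The table places it on chromosome 2 from 173420101 to 173489823, plus strand. Its levels there at 24 h were 57.8 and 59.4 CPM in untreated libraries, 59.0 and 59.2 under 8CA, and 36.5 and 40.8 under 8AA. The 8AA pair lay below all others, and the log2 fold change was −0.60 ± 0.07 (adjusted p = 1.75e-06), or −0.52 and −0.68 without library A or B of that pair. At 8 h it was −0.28 ± 0.06 (adjusted p = 0.00324). In MV4-11 the log2 fold changes lay between −0.17 and −0.01 and did not pass the test. The difference between lines in the 8AA effect at 24 h was itself tested, at log2 0.52 ± 0.09 (adjusted p = 2.25e-04). PDK1 shares its strand with the short gene MIR1244-2 inside its span, which held 33 to 288 counts, so its count may be split.

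BNIP3, ANKRD37 and P4HA1 fell after 24 h in most drug groups. BNIP3, a receptor for the removal of mitochondria (chromosome 10, 133781204 to 133795435, minus strand), had 17.2 and 18.8 CPM in untreated MV4-11 at 24 h, 10.3 and 9.50 with 8CA, and 13.9 and 15.3 with 8AA. All 4 treated libraries lay below the untreated pair. On the log2 scale it fell by 0.89 ± 0.12 under 8CA and by 0.33 ± 0.11 under 8AA (adjusted p = 2.37e-05 and 0.0399), the latter call being lost in 8 of 13 alternatives, including each of the 4 that leave out a library (adjusted p up to 0.220). KG-1a at 24 h had 28 and 26 CPM in untreated libraries, 18 and 20.3 under 8CA, and 21.6 and 20.1 under 8AA. Both falls passed the test, at log2 −0.50 ± 0.10 (adjusted p = 7.23e-04) and −0.37 ± 0.10 (adjusted p = 0.00463), the second at −0.43 and −0.32 without library A or B of the 8AA pair. At 8 h BNIP3 passed the test in neither line. The annotation used for checking holds 39 pseudogenes of BNIP3 and 1 each of HIF1A and EGLN1, none of them a row of the deposited table, so reads shared with them cannot be traced.

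P4HA1, the catalytic subunit of collagen prolyl hydroxylase (chromosome 10, 74766980 to 74856732, minus strand), was at 93.9 and 107 CPM in untreated MV4-11 at 24 h, 74.3 and 71.7 with 8CA, and 91.0 and 98.4 with 8AA. With 8CA both libraries lay below the untreated pair (log2 −0.48 ± 0.08, adjusted p = 1.47e-04), and with 8AA the pairs overlapped (−0.11 ± 0.08, adjusted p = 0.320). KG-1a at 24 h had P4HA1 at 55.9 and 54.4 CPM in untreated libraries, 40.8 and 42.6 under 8CA, and 37.6 and 41.1 under 8AA. It fell under both drugs there, by 0.40 ± 0.07 and 0.49 ± 0.07 on the log2 scale (adjusted p = 1.46e-04 and 1.77e-05), the second −0.43 and −0.55 without 8AA library A or B. At 8 h it was at 48.7 and 54.9 CPM untreated and 43.4 and 42.2 CPM with 8AA, and the fall (−0.27 ± 0.07, adjusted p = 0.00551) was lost without 8AA library B or untreated library B (adjusted p = 0.0534 and 0.102).

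ANKRD37 (chromosome 4, 186317840 to 186321782, plus strand) was low, at 1.64 and 1.90 CPM in untreated MV4-11 at 24 h and 1.21 and 1.41 CPM in untreated KG-1a. With 8CA it stood at 0.915 and 1.08 CPM in MV4-11 and at 0.626 and 0.714 CPM in KG-1a, and with 8AA at 1.52 and 1.14 CPM and at 0.720 and 0.473 CPM. Each treated pair lay below its untreated pair. The fall passed the test with 8CA in MV4-11 (log2 −0.85 ± 0.26, adjusted p = 0.0164) and with both drugs in KG-1a (−0.96 ± 0.32 and −1.10 ± 0.33, adjusted p = 0.0233 and 0.0101), but not with 8AA in MV4-11 (−0.43 ± 0.25, adjusted p = 0.223). DESeq2's Wald test called 0 of these 3 (adjusted p = 0.145, 0.131 and 0.0715). Each was also lost without untreated library B (adjusted p = 0.112, 0.120 and 0.0668), the MV4-11 one without 8CA library A (0.115), the KG-1a ones without 8CA library A (0.118) or B (0.0662) and without 8AA library B (log2 −0.85, adjusted p = 0.0744). At 8 h it fell with 8AA in KG-1a (−1.10 ± 0.34, adjusted p = 0.0209), a call lost in DESeq2 and without 8AA library B or untreated library A (adjusted p = 0.103, 0.167 and 0.148). The gene overlaps UFSP2 on the other strand, which held 211 to 418 counts.

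KDM3A, a histone demethylase (chromosome 2, 86668271 to 86719839, plus strand), rose in 6 of 8 comparisons and fell in 0. KG-1a at 24 h had KDM3A at 89.0 and 80.8 CPM in untreated libraries, 124 and 123 under 8CA, and 102 and 104 under 8AA, with all 4 treated libraries above the untreated pair. The rise was largest with 8CA in KG-1a at 24 h (log2 0.54 ± 0.06, adjusted p = 2.70e-06). With 8AA there the log2 fold change was 0.28 ± 0.06 (adjusted p = 0.00111), the same to 2 decimals without library A and 0.26 without library B. In MV4-11 at 24 h the levels were 111 and 110 CPM in untreated libraries, 134 and 135 under 8CA, and 119 and 118 under 8AA, and the 8CA rise passed the test (0.26 ± 0.05, adjusted p = 7.61e-04) while 8AA gave 0.08 ± 0.05 (adjusted p = 0.250). Its 8 h calls in MV4-11 (0.21 ± 0.05 for 8CA and 0.23 ± 0.05 for 8AA) were lost without untreated library A (adjusted p = 0.214 and 0.0745) and without treated library B (0.144 and 0.0553).

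NDRG1, a protein of differentiation and stress, differed by line and drug. In MV4-11 at 24 h it was at 58.4 and 77.3 CPM in untreated libraries, 36.5 and 40.2 under 8CA, and 56.7 and 63.8 under 8AA. The 8CA pair lay below both others (log2 −0.84 ± 0.11, adjusted p = 1.90e-05), and the 8AA pair overlapped the untreated one (−0.19 ± 0.11, adjusted p = 0.184). After 24 h KG-1a had NDRG1 at 100 and 101 CPM in untreated libraries, 94.5 and 93.2 under 8CA, and 123 and 107 under 8AA. NDRG1 rose there with 8AA (log2 0.20 ± 0.06, adjusted p = 0.0150). That rise was 0.09 without 8AA library A (adjusted p = 0.175) and 0.29 without library B, and the call was lost without either untreated library (adjusted p = 0.105 and 0.0645). At 8 h it rose there with 8AA as well (0.21 ± 0.06, adjusted p = 0.0137), from 124 and 114 CPM to 140 and 134 CPM, a call lost without 8AA library A or untreated library B (adjusted p = 0.113 and 0.151).

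The number of members called against untreated cells is given beside the share of all genes called. ADM, which passed the filter in MV4-11 only through the untreated 24 h pair and so had to be lower with drug there, is among those counted, and counts without it follow. At 8 h 2 of 10 passed with 8CA in MV4-11, where 10.4% of 12800 genes did, and 3 of 10 with 8AA, where 29.2% did. In KG-1a at 8 h 1 of 10 passed with 8CA (0.881% of 12711 genes, 112 in number) and 6 of 10 with 8AA (34.7%). At 24 h 8 of 10 passed with 8CA in MV4-11, 6 of them lower (43.9% of all genes passed, 22.7% lower). With 8AA 4 of 10 passed there, all lower (29.1% of all genes passed, 15.3% lower). Without ADM these were 7 of 9, 5 of them lower, and 3 of 9, all lower. DESeq2 called 5 of the 10 with 8CA and 1 with 8AA there. The MV4-11 counts also rested on single libraries: with 8AA at 24 h 1 member was left without 8AA library A or untreated library B and 2 without 8AA library B, with 8CA at 8 h 0 were left without 8CA library B and 1 without untreated library A, and with 8AA at 8 h 1 was left without 8AA library B. In KG-1a at 24 h 5 of 10 passed with 8CA, 3 of them lower (47.4% of all genes passed, 24.0% lower). With 8AA 8 of 10 passed there, 6 of them lower (51.9% of all genes passed, 26.6% lower). The median log2 fold change of the 10 at 24 h was −0.33 and −0.18 in MV4-11 and −0.04 and −0.43 in KG-1a, for 8CA and 8AA in turn, against medians of all genes between 0.00 and 0.01. Without ADM the MV4-11 medians were −0.17 and −0.16. Scaling by library size alone moved the median of all genes to 0.11 with 8AA in KG-1a at 24 h. The same untreated libraries serve both drugs of a line and hour, so the drug columns are not independent.

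**Figure D2:**
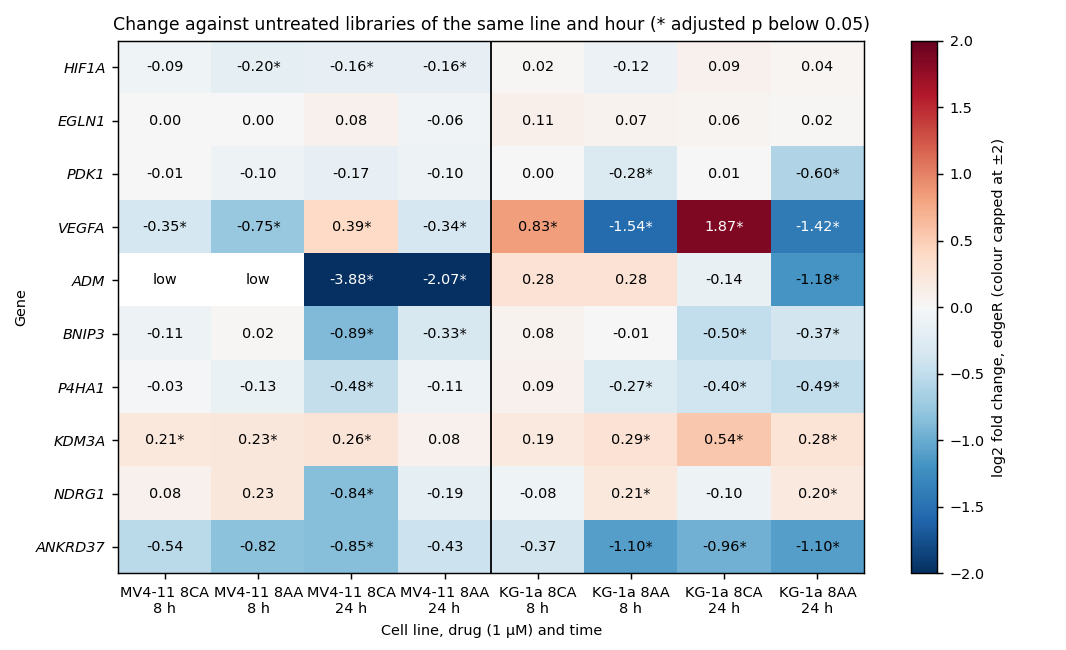
Log2 fold change from edgeR of each gene (rows) against untreated libraries of the same line and hour, for 8 combinations of line, drug and hour (columns), with an asterisk at adjusted p under 0.05 and "low" where both groups had at most 3 counts in all. Red is higher and blue lower, with colour capped at 2: VEGFA is red with 8CA and blue with 8AA in KG-1a, and BNIP3, P4HA1 and ANKRD37 lie at or below −0.11 in all 4 columns of 24 h.

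The 2 drugs were then compared directly at the same dose and hour, in 40 tests over 10 genes and 4 settings with adjustment over all genes. In MV4-11 1 of 10 members, VEGFA, differed at 8 h (6.66% of all genes) and 5 of 10 at 24 h (21.2%), and in KG-1a 5 of 10 differed at 8 h (30.4%) and 5 of 10 at 24 h (42%). VEGFA was lower with 8AA than with 8CA in all 4 settings, by log2 −0.40 ± 0.08 and −0.73 ± 0.07 in MV4-11 at 8 h and 24 h, and by −2.37 ± 0.11 and −3.29 ± 0.10 in KG-1a (adjusted p = 0.00494, 2.47e-06, 1.16e-09 and 7.52e-13). The MV4-11 value at 8 h was lost without 8AA library B (adjusted p = 0.0645) or 8CA library A (adjusted p = 0.0559). In KG-1a at 24 h the difference was −3.38 and −3.21 without library A or B of the 8AA pair, and 8AA left 0.103 of the level with 8CA. At 8 h the members that did not pass had log2 differences between −0.27 and 0.14 in MV4-11, leaving aside ADM, and between −0.74 and 0.10 in KG-1a, with ANKRD37 the lowest in both, where the 95% intervals reached −1.05 and −1.50.

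The other differences between 8CA and 8AA depended on the line. In MV4-11 at 24 h BNIP3, P4HA1 and NDRG1 were higher with the amino than with the chloro analog, by log2 0.56 ± 0.12, 0.38 ± 0.08 and 0.65 ± 0.11 (adjusted p = 0.00399, 0.00336 and 6.80e-04), the first 2 lost without 8AA library B (0.0513 and 0.0565). KDM3A was lower there (−0.18 ± 0.05, adjusted p = 0.0225), a call lost on leaving out any 1 of the 4 libraries (adjusted p from 0.0579 to 0.0970). In KG-1a at 24 h PDK1 and ADM were lower with 8AA, by log2 −0.61 ± 0.06 and −1.04 ± 0.30 (adjusted p = 2.40e-06 and 0.0106), KDM3A was also lower (−0.27 ± 0.06) and NDRG1 higher (0.29 ± 0.06). Without 8AA library A or B these were −0.54 and −0.69 for PDK1, −1.01 and −1.07 for ADM, −0.26 and −0.28 for KDM3A and 0.19 and 0.39 for NDRG1, and the ADM call was lost without 8CA library B (adjusted p = 0.0573). BNIP3 and P4HA1 did not pass the test there, with 95% intervals of the log2 difference of −0.09 to 0.34 and −0.23 to 0.06. For HIF1A at 24 h the interval was −0.12 to 0.12 in MV4-11 and −0.15 to 0.06 in KG-1a, and for EGLN1 −0.35 to 0.07 and −0.20 to 0.12, though without 8AA library B EGLN1 was called in KG-1a (−0.18, adjusted p = 0.0268). At 8 h in KG-1a, P4HA1 and PDK1 were lower with 8AA (−0.36 ± 0.07 and −0.28 ± 0.06, the second lost without 8CA library B, adjusted p = 0.0606) and NDRG1 higher (0.29 ± 0.06), while the difference in HIF1A (−0.14 ± 0.05, adjusted p = 0.0400) was lost in 8 of 13 alternatives, including each that leaves out a library (adjusted p from 0.117 to 0.189).

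Untreated MV4-11 libraries of 24 h differed in these genes from those of 8 h. The sample labels used here name no start, harvest or sequencing batch, so hour and batch cannot be told apart. Between 8 h and 24 h 7 of the 10 members rose in untreated MV4-11 and 0 fell. Of all genes 5.54% were called there and 3.38% rose. ADM is 1 of the 7 and had to rise, since it passed the filter only through the untreated 24 h pair, and of the other 9 members 6 rose. NDRG1 went from 40.8 and 42.4 CPM to 58.4 and 77.3 CPM (log2 0.71 ± 0.11, adjusted p = 0.00146), BNIP3 from 10.9 and 8.65 CPM to 17.2 and 18.8 CPM (0.89 ± 0.12, adjusted p = 4.55e-04) and PDK1 from 31.4 and 31.6 CPM to 44.3 and 45.9 CPM (0.52 ± 0.07, adjusted p = 4.93e-04). In each of the 3 the later pair lay above the earlier one. P4HA1 (0.43 ± 0.08), HIF1A (0.36 ± 0.06) and KDM3A (0.23 ± 0.05) also rose, and ADM went from 1 count in the 8 h pair to 30 counts at 24 h, a ratio of 28.7 (exact 95% interval 4.77 to 1170). Leaving out 1 of the 4 libraries left 4 to 6 of the members called and 153 to 287 genes against 709. The calls so lost were those of ADM (without library B of either hour, adjusted p up to 0.0623), P4HA1 (likewise, up to 0.122) and KDM3A (without either 24 h library or 8 h library A, up to 0.186). In untreated KG-1a 1 of 10 passed, where 4.45% of all genes did, and this was NDRG1, which was lower at 24 h (−0.23 ± 0.06, adjusted p = 0.0498) and lost the call in 7 of 12 alternatives.

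The 6 members lower with 8CA than in untreated MV4-11 at 24 h took unlike courses from 8 h. In MV4-11 with 8CA, BNIP3 was at 9.86 and 8.29 CPM at 8 h and 10.3 and 9.50 CPM at 24 h, P4HA1 at 78.3 and 69.1 CPM and then 74.3 and 71.7 CPM, and NDRG1 at 41.4 and 47.5 CPM and then 36.5 and 40.2 CPM. These 3 did not pass the test between hours, with log2 changes of 0.11 ± 0.13, −0.03 ± 0.08 and −0.22 ± 0.11 (adjusted p = 0.530, 0.823 and 0.130), so the difference at 24 h stood against a rise in untreated cells. ANKRD37 with 8CA was at 0.734 and 0.730 CPM and then 0.915 and 1.08 CPM (log2 0.43 ± 0.32, adjusted p = 0.305), ADM stayed at 2 counts or fewer in each library, and HIF1A rose. With 8CA 5 of 10 members rose from 8 h to 24 h in MV4-11, namely VEGFA (0.92 ± 0.07), PDK1, EGLN1, HIF1A and KDM3A. Of all genes 43.7% were called there and 21.6% rose. With 8AA 6 of 10 members rose in MV4-11, namely ANKRD37, VEGFA, BNIP3, PDK1, P4HA1 and HIF1A. Of all genes 25.5% were called there and 13.7% rose. In KG-1a, where untreated BNIP3 and P4HA1 did not pass the test between hours (log2 0.06 ± 0.10 and 0.10 ± 0.07), both fell with 8CA from 8 h to 24 h, BNIP3 by 0.51 ± 0.10 and P4HA1 by 0.39 ± 0.07 on the log2 scale (adjusted p = 4.58e-04 and 1.60e-04). In total 3 members fell and 3 rose there with 8CA (50% of all genes called), and 4 fell and 2 rose with 8AA (47.1%). Of the latter, without 8AA 24 h library A or B, PDK1 (−0.23 ± 0.07) was at −0.15 and −0.31, ADM (−0.86 ± 0.30) at −0.83 and −0.89, BNIP3 (−0.30 ± 0.10) at −0.36 and −0.25, NDRG1 (−0.24 ± 0.06) at −0.35 and −0.15, HIF1A (0.27 ± 0.05) at 0.31 and 0.22 and KDM3A (0.17 ± 0.06) at 0.17 and 0.15 on the log2 scale. Leaving out 1 library took away the calls of EGLN1 with 8CA and ANKRD37 with 8AA in MV4-11 (adjusted p up to 0.163 and 0.170), of HIF1A with 8CA in KG-1a (up to 0.0922), and of ADM, BNIP3, KDM3A and PDK1 with 8AA in KG-1a (up to 0.120, 0.142, 0.371 and 0.0772). These comparisons of treated libraries between hours were added after the data had been seen.

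**Figure D3:**
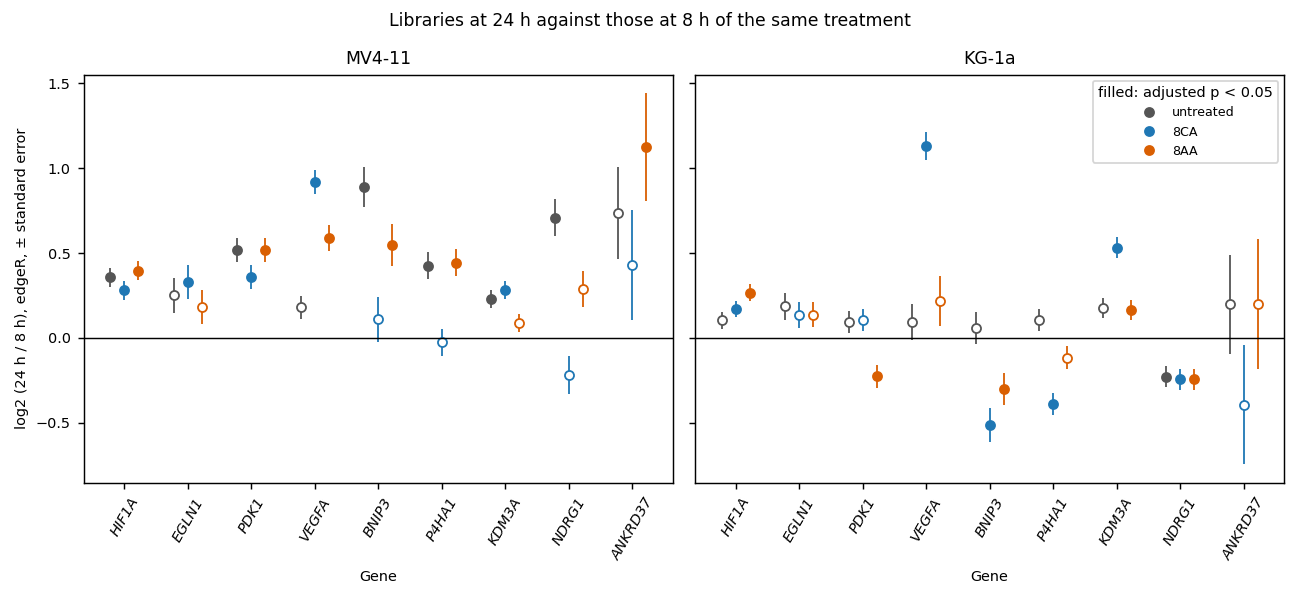
Log2 ratio of 24 h to 8 h libraries with its standard error (vertical axis) for 9 of the 10 genes in MV4-11 (left) and KG-1a (right), untreated in grey, with 8CA in blue and with 8AA in orange; filled points passed the test, and ADM is left out for its few counts in MV4-11. In MV4-11 BNIP3 and NDRG1 lie at 0.89 and 0.71 untreated and at 0.11 and −0.22 with 8CA, and in KG-1a VEGFA with 8CA lies highest at 1.13.

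Whether a drug effect differed between hours or between lines was tested as such. The 24 h effect differed from the 8 h effect in 4 of 10 members with 8CA in MV4-11 (16.3% of all genes), in 1 of 10 with 8AA (4.63%), in 4 of 10 with 8CA in KG-1a (23.9%) and in 2 of 10 with 8AA (18.3%). The 8CA effect differed between lines in 1 of 10 members at 8 h (1.15% of 14055 genes) and in 5 of 10 at 24 h (11.2%), and the 8AA effect in 1 of 10 at 8 h (11.1%) and in 4 of 10 at 24 h (22.3%). VEGFA differed between lines in all 4 of these tests. ANKRD37 and EGLN1 passed 0 of the 8 tests.

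Among the machinery that makes and controls HIF-1, 18 of 21 listed genes could be tested. In the 4 comparisons at 24 h, 8, 6, 6 and 7 of the 18 fell and 4, 3, 2 and 7 rose (MV4-11 with 8CA and 8AA, then KG-1a with 8CA and 8AA). Of all genes tested, 22.7%, 15.3%, 24.0% and 26.6% fell and 21.2%, 13.9%, 23.4% and 25.4% rose, in the same order. Chaperones known to act on HIF1A were among the listed genes that fell, with HSP90AA1 lower in 7 of 8 comparisons and by log2 −0.82 ± 0.04 with 8CA in MV4-11 at 24 h (adjusted p = 1.59e-09), and HSP90AB1 and the co-chaperone PTGES3 lower in 6 of 8. ELOC, a subunit of the VHL ligase, was lower in 7 of 8. CREBBP, a coactivator of HIF-1, was higher in 6 of 8, by log2 0.48 ± 0.05 with 8CA in KG-1a at 24 h (adjusted p = 7.94e-07). EPAS1, the paralog HIF-2α of HIF1A, fell in 4 of 8 comparisons.

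The relatives of the members did not all follow them. PDK2, which acts on the same enzyme as PDK1, rose in 6 of 8 comparisons and fell in 0, by log2 0.48 ± 0.09 with 8AA in KG-1a at 24 h (adjusted p = 3.51e-04), where PDK1 fell. JMJD1C, a relative of KDM3A, rose in 7 of 8. BNIP3L, which like BNIP3 marks mitochondria for removal, rose in 3 of 8 comparisons, all with 8AA, and fell in 0. Of 19 glycolytic targets 18, 17, 13 and 16 were lower at 24 h and 0, 0, 1 and 1 higher, in the order used above, and of 36 tested targets outside glycolysis beyond the members 16, 10, 9 and 12 were lower and 7, 5, 10 and 9 higher. All genes tested were lower in 22.7%, 15.3%, 24.0% and 26.6% and higher in 21.2%, 13.9%, 23.4% and 25.4%. The lists were drawn up with results of these data known, and their counts are descriptions.

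**Figure D4:**
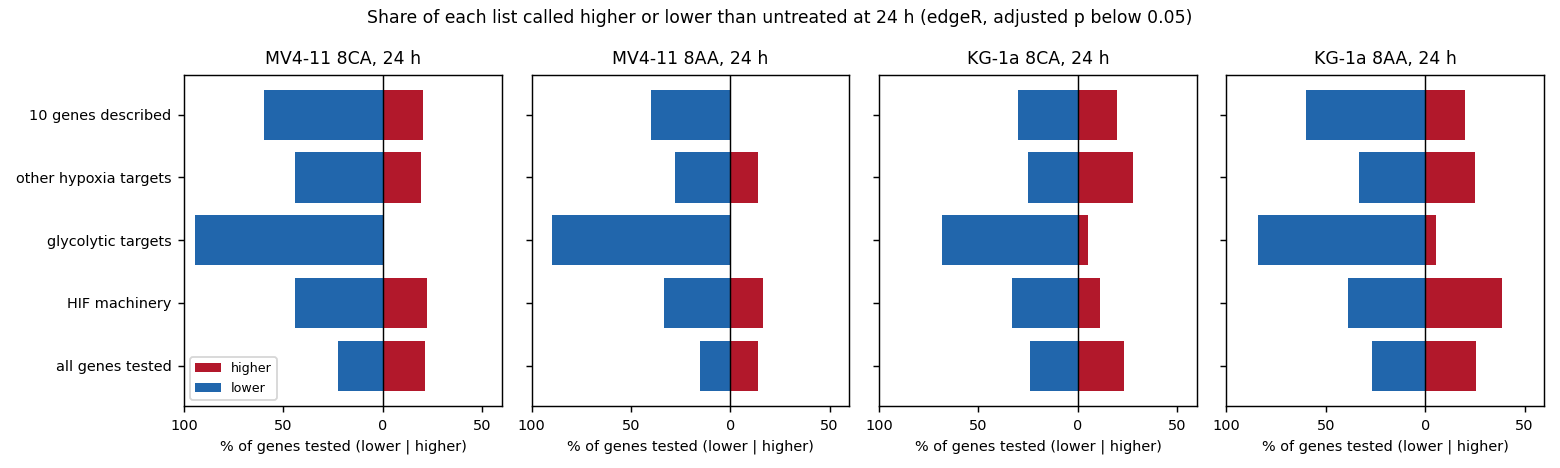
Share of the genes tested in each list that was called lower (blue, to the left) or higher (red, to the right) than untreated at 24 h, in percent on the horizontal axis, for 4 combinations of line and drug. The glycolytic targets reach 94.7% lower with 8CA in MV4-11. There the 10 genes described here reach 60% lower and 20% higher, and all genes 22.7% lower and 21.2% higher. The 10 genes include ADM, whose fall in MV4-11 was built into the filter. Without ADM, 5 of 9 were lower and 2 higher with 8CA in MV4-11, and 3 of 9 were lower with 8AA.

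Over the 12 group means, each taken against its own line's mean of log2 CPM, the members took unlike courses. The closest pairs were ANKRD37 with P4HA1 (Pearson r = 0.887), BNIP3 with P4HA1 (0.880), HIF1A with EGLN1 (0.834) and BNIP3 with NDRG1 (0.793), and the least alike were VEGFA with NDRG1 (−0.440) and KDM3A with P4HA1 (−0.422). The 5 genes of 10076 most like HIF1A by this measure were TANK (0.932), EMID1 (0.923), GAPVD1 (0.922), OLMALINC (0.921) and MCM3AP-AS1 (0.901). These are descriptions over 12 points that share libraries, scaling and untreated controls.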

How the data were processed

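RNA from 24 libraries was sequenced, and the authors deposited 1 table of raw counts per gene and library, not normalized, beside each gene's symbol, position, exon length and strand. The submitters' processing notes name Trimmomatic, STAR 2.6.0, HTSeq 0.11.1, edgeR and the builds hg19 and hg38, with no roles, and strand use is not given in the sources used here. Of the 10 members' starts 0 lay within 1 kb of the GRCh38 start, so table positions are not GRCh38. From the counts, genes were filtered (filterByExpr, minimum count 10, which kept all 10 members in each line), scaled by TMM and tested with edgeR 4.0.16 in R 4.3.3 in the 12 libraries of a line, or in all 24 for differences between lines, with Benjamini-Hochberg adjustment and a threshold of 0.05. edgeR's common coefficient of variation was 0.0422 for MV4-11 and 0.0418 for KG-1a. Errors are standard errors, and intervals are at 95%. The steps were tested on simulated data.

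The rule for names took all 10 members, their tested relatives and up to 4 called genes per list and contrast, from which the text gives a selection made after their values were seen. The members and lists were chosen with earlier results of these data known. The alternatives were other scalings, filters, sets of libraries, the replicate letter as a block, DESeq2 1.42.0 and leaving out each library.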

Additional observations from a re-analysis of the deposited data

Results flagged for a closer look

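Each value here is a difference between drug effects, drug against untreated, in log2 units with its standard error, tested as an interaction in edgeR with adjustment over all genes. Of 80 such tests on the members 22 passed, 11 between hours and 11 between lines. In the same comparisons the share of all genes called ran from 4.63% to 23.9% between hours and from 1.15% to 22.3% between lines.

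Between hours (24 h effect minus 8 h effect), with 8CA in MV4-11 the difference was 0.74 ± 0.10 for VEGFA, −0.78 ± 0.18 for BNIP3, −0.45 ± 0.11 for P4HA1 and −0.93 ± 0.16 for NDRG1 (adjusted p = 1.73e-04, 0.00746, 0.0126 and 0.00104), the P4HA1 value lost in 4 of 16 alternatives. With 8AA in MV4-11 it was 0.41 ± 0.10 for VEGFA (adjusted p = 0.0345, lost in 6 of 16 alternatives). With 8CA in KG-1a it was 1.03 ± 0.13 for VEGFA, −0.57 ± 0.14 for BNIP3, 0.36 ± 0.09 for KDM3A and −0.49 ± 0.09 for P4HA1 (adjusted p = 6.50e-05, 0.00692, 0.00677 and 0.00136). With 8AA in KG-1a it was −0.32 ± 0.09 for PDK1 and −1.47 ± 0.41 for ADM (adjusted p = 0.0246 and 0.0213, lost in 7 and 4 of 16 alternatives), or −0.24 and −0.40 for PDK1 and −1.44 and −1.49 for ADM without 8AA 24 h library A or B.

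Between lines (MV4-11 effect minus KG-1a effect), the difference in VEGFA was −1.17 ± 0.12 with 8CA and 0.83 ± 0.15 with 8AA at 8 h, and −1.46 ± 0.11 with 8CA and 1.09 ± 0.14 with 8AA at 24 h (adjusted p = 3.29e-06, 5.74e-04, 3.21e-09 and 3.34e-06). With 8CA at 24 h it was −0.23 ± 0.07 for HIF1A, −3.72 ± 0.74 for ADM, −0.26 ± 0.08 for KDM3A and −0.73 ± 0.14 for NDRG1 (adjusted p = 0.0356, 0.00151, 0.0422 and 8.30e-04). The value for ADM rests on 2 counts in MV4-11 with 8CA and depends on the prior count, and those for HIF1A and KDM3A were lost in 7 and 8 of 15 alternatives. With 8AA at 24 h it was 0.52 ± 0.09 for PDK1, 0.40 ± 0.11 for P4HA1 and −0.37 ± 0.13 for NDRG1 (adjusted p = 2.25e-04, 0.00870 and 0.0475), the last lost in 5 of 15 alternatives. Without KG-1a 8AA library A or B the 24 h values for 8AA were 1.19 and 0.94 for VEGFA, 0.44 and 0.52 for PDK1, 0.34 and 0.38 for P4HA1 and −0.27 and −0.54 for NDRG1, of which NDRG1 without library A did not pass (adjusted p = 0.164).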

How the results depend on the processing

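Across 3687 comparisons of a member's value with an alternative, 153 lost a call, 49 gained one, 0 reversed a called value and 155 changed sign with neither value called. Counts below are of members, then of all genes, and the cause of each shift was not tested.

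Fitting 6 libraries gave 1 member and 612 genes for MV4-11 8CA at 8 h, 2 members and 503 genes for KG-1a 8CA at 8 h, and 347 genes for MV4-11 8AA against 8CA at 8 h. All 24 libraries gave 184 genes for KG-1a 8CA at 8 h and 0 members for untreated KG-1a over time, as did library-size and upper-quartile scaling (0 and 0), both of which gave 2 members for MV4-11 8AA at 24 h. DESeq2's Wald test, whose missing adjusted p were left missing, gave 5 members for MV4-11 8CA at 24 h, 1 for MV4-11 8AA at 24 h, 0 for the 8AA difference between hours in KG-1a, 3 for the 8CA difference between lines at 24 h, 556 genes for MV4-11 8AA against 8CA at 8 h and 469 for untreated MV4-11 over time. Without a filter there were 272 genes for KG-1a 8CA at 8 h, 2 members and 952 genes for the 8AA difference between hours in MV4-11, 246 genes for the 8CA difference between lines at 8 h, and 1122 and 936 genes for untreated MV4-11 and KG-1a over time.

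The letters A and B are not said to mark a shared batch, and the correlations of same-letter deviations ran from −0.226 to 0.452 over 12 pairs of groups, 6 of them over 0.1 and the highest for the 3 pairs of MV4-11 groups at 8 h (0.318, 0.353 and 0.452). Since not every pair was over 0.1, the letter was not taken as a pairing. With the letter as a replicate block 205 genes passed for KG-1a 8CA at 8 h, 1369 for MV4-11 8AA against 8CA at 8 h, 1321 for untreated MV4-11 over time, and 2 members and 1123 genes for the 8AA difference between hours in MV4-11.

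Leaving out 1 library, where a lone library left is taken to vary like the others, gave the following lowest and highest counts. For 8CA against untreated at 8 h they were 0 to 2 members and 576 to 774 genes in MV4-11, and 1 member and 28 to 37 genes in KG-1a. For 8AA at 8 h they were 1 to 2 members and 2577 to 3019 genes in MV4-11, and 4 to 5 members and 2841 to 3265 genes in KG-1a. For 8CA at 24 h they were 6 to 7 and 4 to 5 members, and for 8AA at 24 h 1 to 3 and 6 to 7 members, with 2293 to 2833 genes in MV4-11 under 8AA. Between the drugs MV4-11 gave 0 to 1 member and 365 to 468 genes at 8 h and 2 to 4 members and 1167 to 1845 genes at 24 h, and KG-1a gave 3 to 4 members and 2237 to 2386 genes at 8 h and 4 to 6 members at 24 h. Between hours the ranges were 3 to 4 members and 1166 to 1814 genes for 8CA and 0 to 1 member and 136 to 445 genes for 8AA in MV4-11, and 3 to 4 members and 2015 to 2413 genes for 8CA and 0 to 4 members and 1358 to 3981 genes for 8AA in KG-1a. Between lines they were 1 member and 82 to 117 genes for 8CA and 1 member and 969 to 1299 genes for 8AA at 8 h, and 3 to 4 members and 1008 to 1148 genes for 8CA and 3 to 5 members for 8AA at 24 h. Over time they were 4 to 6 members and 153 to 287 genes in untreated MV4-11, 0 members and 60 to 209 genes in untreated KG-1a, 4 to 5 members for 8CA and 5 to 7 members and 1621 to 2891 genes for 8AA in MV4-11, and 5 to 6 members for 8CA and 3 to 6 for 8AA in KG-1a. Some comparisons are given here in members only. For these the share of all genes called with every library kept was 22.3% for the 8AA difference between lines at 24 h. It was 42% to 51.9% for the others. Low counts limit ADM in MV4-11 and ANKRD37 in both lines.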

Other observations

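Among hypoxia targets outside glycolysis beyond the 10 genes of the report, DDIT4, an inhibitor of mTORC1, rose with 8CA in KG-1a by log2 1.29 ± 0.07 at 8 h and 2.69 ± 0.07 at 24 h (adjusted p = 3.62e-08 and 4.82e-13, edgeR) and fell with 8AA there at 24 h (−0.30 ± 0.08, adjusted p = 0.00550). STC2, a secreted glycoprotein, rose with 8CA in KG-1a by 1.74 ± 0.30 and 4.19 ± 0.20 (adjusted p = 0.00884 and 4.65e-10) and fell with 8AA (at 8 h by 1.5 ± 0.48 and at 24 h by 1.4 ± 0.45, adjusted p = 0.0246 and 0.0168). Both thus shared with VEGFA a rise under 8CA and a fall under 8AA in KG-1a at 24 h, but in MV4-11 at 24 h DDIT4 fell with 8AA (−0.70 ± 0.14, adjusted p = 0.00128) and did not pass the test with 8CA (−0.23 ± 0.13, adjusted p = 0.161). STC2 passed the test in no MV4-11 comparison with untreated libraries. AK4, a mitochondrial adenylate kinase, fell at 24 h in all 4 drug comparisons, by 3.21 ± 0.45 and 1.36 ± 0.35 in MV4-11 and by 0.60 ± 0.05 and 0.86 ± 0.05 in KG-1a for 8CA and 8AA in turn (adjusted p = 4.18e-05, 0.00839, 1.44e-07 and 2.71e-09). JUN, a subunit of AP-1, rose with 8CA in MV4-11 by 1.17 ± 0.18 at 8 h and 1.79 ± 0.15 at 24 h (adjusted p = 8.82e-04 and 1.98e-07). ADM2, the relative of ADM, was lower with 8AA in MV4-11 at both hours (−1.22 ± 0.17 and −0.90 ± 0.14, adjusted p = 9.80e-05 and 2.42e-04) and higher with 8CA at 24 h (1.58 ± 0.11, adjusted p = 3.72e-08). NDUFA4L2, a mitochondrial protein, rose with 8CA in MV4-11 at 24 h (1.02 ± 0.16, adjusted p = 1.30e-04). In KG-1a NDUFA4L2 had 1 and 0 counts in untreated libraries and 36 and 43 with 8CA at 24 h, where no fold is given. Every other KG-1a library held at most 3 counts of it. It entered the KG-1a test through that 8CA pair alone, so a difference from that pair was built into the filter. ALDOC, a glycolytic aldolase, fell with 8CA in MV4-11 at 24 h (−1.54 ± 0.12, adjusted p = 1.35e-07) and rose with 8AA in KG-1a (1.37 ± 0.19, adjusted p = 1.87e-05). The genes of this paragraph were chosen, after their values had been seen, from the largest called changes of lists that hold other genes too, and nothing is drawn from their being alike.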
